A study of Mus musculus with 40 samples.

Results

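The 10 genes described here encode the ATR-CHK1 checkpoint: *Atr* and its partner *Atrip*, the activators *Topbp1* and *Etaa1*, the clamp genes *Rad9a*, *Rad1* and *Hus1* with the loader gene *Rad17*, the mediator *Clspn* and the effector kinase *Chek1*. They were chosen by name, with no measured value in the rule, from the 55536 genes of the count matrices, and all 10 passed the filter on low counts in every fit. The RNA came from cultured mouse embryonic stem cells (mESCs), which are pluripotent, of 3 genotypes. WT cells gave 2 biological replicates, cells lacking *Ccnc* gave 3 clones named D1, G2 and H5, and those lacking *Cdk8* gave 3 named B9, H4 and C8. *Ccnc* encodes Cyclin C and *Cdk8* its kinase partner, both subunits of the Mediator kinase module. Each replicate or clone gave 1 library after 4 h in DMSO, the solvent, and 1 after 4 h in 900 nM AZD6738, an inhibitor of ATR (ATRi). The KO clones had been grown from single cells after CRISPR editing of Cas9-expressing mESCs, so a clone's own features cannot be told apart from those of its genotype within that clone, and WT and KO lines alike carried intact *Atm*. The WT libraries were sequenced in 2 runs, once in a multiplex with the *Ccnc* KO libraries and once in another with the *Cdk8* KO libraries, so the comparisons of both KO genotypes share their WT cells.

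When a replication fork stalls, single-stranded DNA coated with RPA recruits ATR through ATRIP. RAD17 loads the RAD9-RAD1-HUS1 clamp at the junction, the clamp brings in TOPBP1, and TOPBP1 activates ATR. ETAA1 binds RPA directly and activates ATR on a separate route. ATR then phosphorylates CHK1 held by Claspin, the product of *Clspn*, and CHK1 restrains the CDC25 phosphatases, which limits origin firing and holds back mitosis. Embryonic stem cells, which cycle fast with a short G1 phase, are known to depend on this pathway to get through S phase. The inhibitor acts on the ATR protein, and these data hold messenger RNA levels only: neither ATR activity nor any protein was measured in them.

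The 20 library runs held 30899823 to 67274049 counts. *Ccnc* stood at 4.24 to 7.41 CPM (counts scaled to the library's total, normalised by TMM) in the *Ccnc* KO libraries and at 43.3 to 45.4 in the WT libraries tested beside them (log2 fold change −2.93, SE 0.13, adjusted p = 1.14e-08, edgeR). *Cdk8* stood at 52.4 to 64.3 CPM in the *Cdk8* KO libraries and at 71.1 to 78.8 in those of WT (−0.35, SE 0.06, adjusted p = 0.0112), so most of its mRNA remained in the cells labelled *Cdk8* KO. The study checked its KO clones for loss of the protein by immunoblot and genotyped them. The mRNA level here does not measure the protein. All 10 embryonic stem cell markers were above 70 CPM on average. WT replicate 2 under ATRi was left out of the main tests, as the study did, and its values are shown as crosses in the plots and given apart. The WT libraries differed between runs by −0.07 to 0.11 on the log2 CPM scale over the 10 genes, with a median absolute difference of 0.05.

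Per kilobase of their longest coding transcript, the levels of the 10 genes in the DMSO libraries spanned from an RPKM (CPM per kilobase) of 48.3 ± 2.19 for *Topbp1* to 5.69 ± 0.625 for *Rad9a* (mean ± SD over 10 library runs, 8 lines with WT counted in both multiplexes). *Etaa1*, the other activator, came next at 28.8 ± 1.67, and *Chek1* was at 26.2 ± 2.90. *Rad17* (22.9 ± 1.04), *Clspn* (20.6 ± 0.885) and *Hus1* (18.8 ± 1.32) formed the middle. *Rad1* (11.7 ± 0.568), *Atrip* (11.1 ± 0.691) and *Atr* itself (8.05 ± 0.832) were lower. Over the 18 library runs used in the tests, *Topbp1* was above *Etaa1* in 18, *Clspn* above *Hus1* in 18, *Hus1* above *Rad1* in 18 and *Atrip* above *Atr* in 18. The neighbours *Etaa1* and *Chek1* kept their order in 15 of 18, *Chek1* and *Rad17* in 16, *Rad17* and *Clspn* in 16, *Rad1* and *Atrip* in 15 and *Atr* and *Rad9a* in 17, so the order of each of these pairs was turned in at least 1 library run. The order rests on the transcript length used: over the union of all exons *Etaa1* ranked first and *Topbp1* second, and *Atr* ranked last. *Rad9a* had the fewest reads of the 10 genes (354 to 724 in the libraries tested) and *Topbp1* the most (8058 to 17389).

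**Figure D1:**
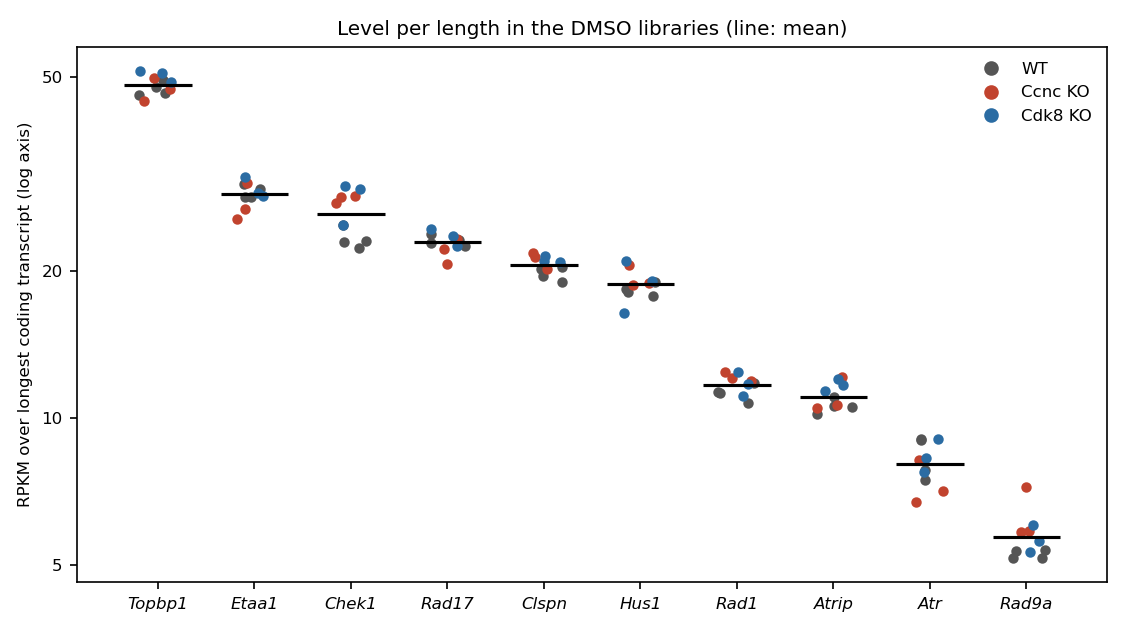
RPKM over the longest coding transcript (log axis) of the 10 genes in each DMSO library run, coloured by genotype, with the mean as a line. *Topbp1* lies highest at a mean of 48.3 and *Rad9a* lowest at 5.69, and the WT libraries lie at the low end of the *Chek1* column.

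Whether the absence of Cyclin C or CDK8 changed the supply of checkpoint mRNA was asked by comparing KO with WT libraries, both treatments together with treatment as a term. *Chek1* was higher in *Ccnc* KO cells, by 17.8% (95% interval 6.42% to 30.4%), and was the only one of the 10 genes to pass the test. This fit takes the libraries of a line as independent, so its intervals do not measure the spread between lines. The *Chek1* call depended on which lines were kept, as given below. In *Cdk8* KO cells none of the 10 genes passed. The test called 12.3% of all 18577 genes in the *Ccnc* comparison and 4.31% of 18721 in the *Cdk8* comparison, so 1 of 10 and 0 of 10 are not above the share called among all genes. The fitted values were positive for 7 of 10 genes in *Ccnc* KO and for 8 of 10 in *Cdk8* KO cells, beside 50.7% and 51.7% of all genes. Their median log2 fold change was 0.07 in both comparisons, where that of all genes was 0.00 and 0.01. Under DMSO alone all KO libraries lay above both WT libraries for 4 of the 10 genes in the *Ccnc* multiplex (*Rad9a*, *Rad1*, *Hus1* and *Chek1*) and for 3 in the *Cdk8* multiplex (*Atrip*, *Clspn* and *Chek1*), as they did for 18.3% and 15.6% of all genes. They lay below for 0 of the 10 in either multiplex. Of all genes they lay below for 3366 of 18577 and 2779 of 18721. No member changed by 2-fold, the limit that the study set for this comparison: the widest 95% interval, that of *Rad9a* in *Ccnc* KO, ended at a log2 fold change of 0.57.

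**Figure D2:**
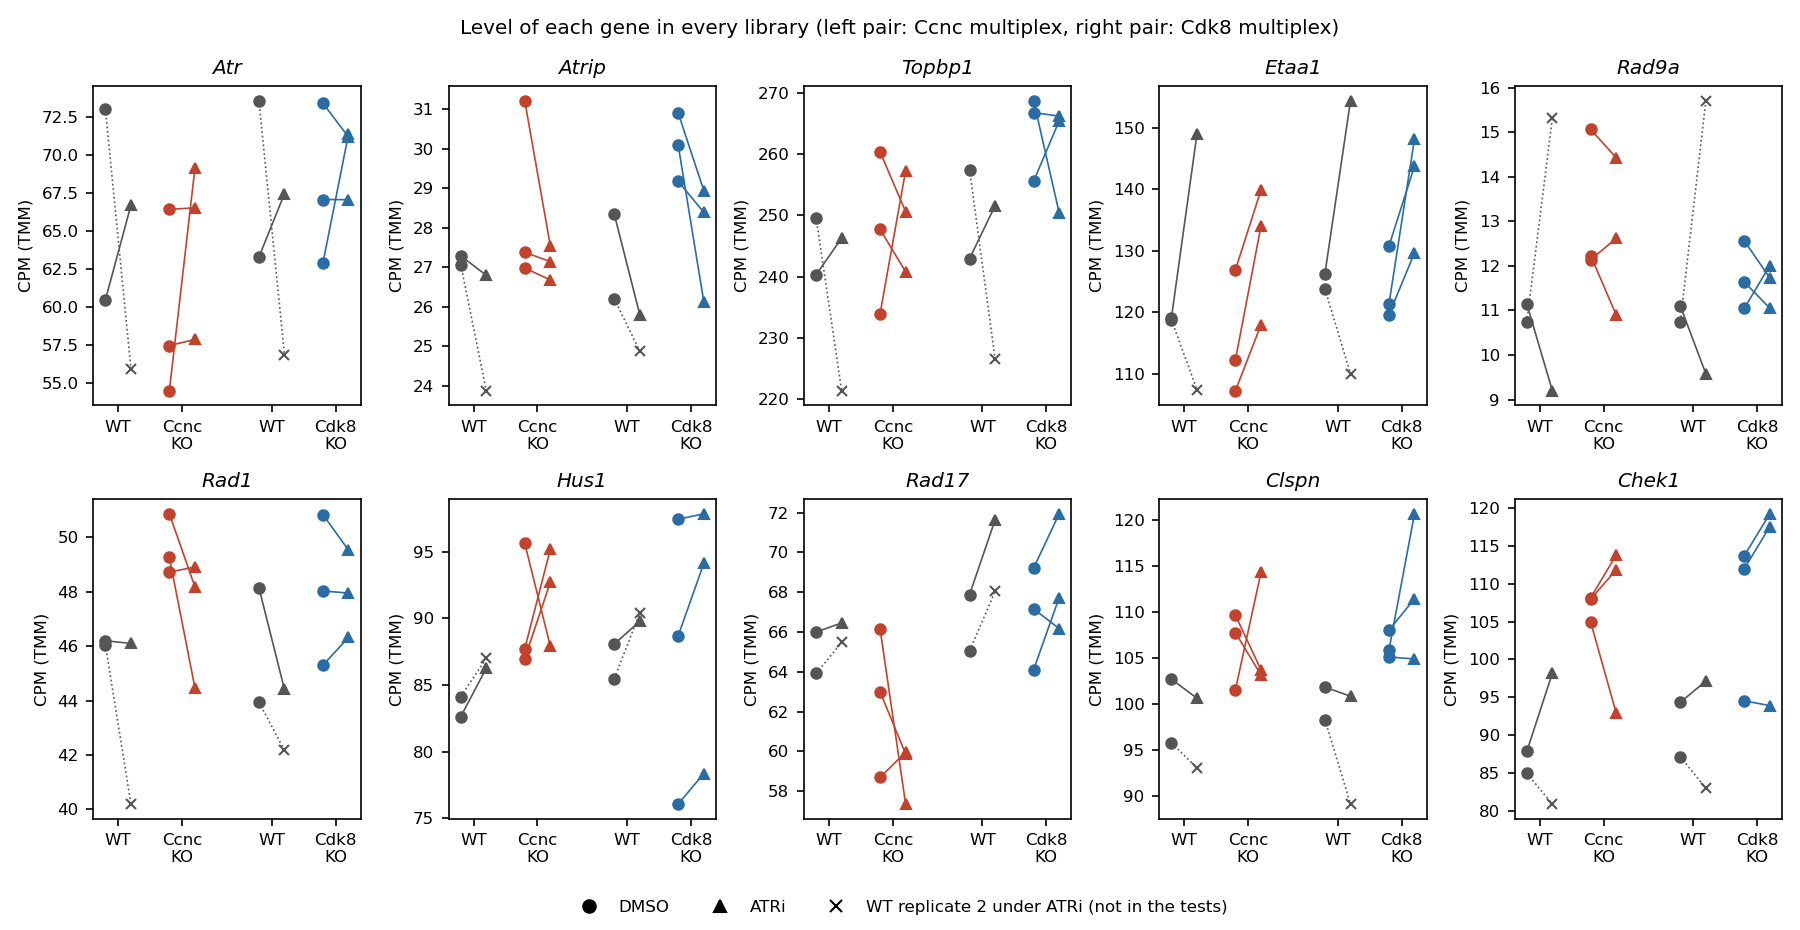
CPM of each of the 10 genes in every library, with 1 panel a gene, WT and *Ccnc* KO of the *Ccnc* multiplex on the left and WT and *Cdk8* KO of the *Cdk8* multiplex on the right. Circles are DMSO, triangles ATRi, crosses WT replicate 2 under ATRi, and lines join the libraries of 1 line; in the *Chek1* panel all circles of both KO genotypes lie above the WT circles of their multiplex.

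Of the effector and mediator genes, *Chek1* encodes the kinase that carries the ATR signal to the cell cycle machinery. It lies on the minus strand of chromosome 9 at chr9:36708482-36727065 (GRCm38). Under DMSO it stood at 87.8 and 84.9 CPM in the WT replicates and at 105, 108 and 108 in *Ccnc* KO clones D1, G2 and H5. Under ATRi it stood at 98.2 CPM in WT replicate 1 and at 92.8, 112 and 114 in D1, G2 and H5. The KO and WT libraries were apart under DMSO, and under ATRi clone D1 lay below the WT library. The fitted log2 fold change was 0.24 (SE 0.07, adjusted p = 0.0360). It was 0.32 (SE 0.07, adjusted p = 0.0437) in the DMSO libraries alone and 0.24 (SE 0.07, adjusted p = 0.0499) by limma voom with the clone as a random effect. Left without clone H5, clone G2, WT replicate 1 or WT replicate 2, the fit no longer called *Chek1* (adjusted p = 0.104, 0.134, 0.186 and 0.135, with log2 fold changes from 0.20 to 0.32).

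In the *Cdk8* multiplex *Chek1* under DMSO stood at 94.3 and 87.1 CPM in the WT replicates and at 112, 94.5 and 114 in clones B9, H4 and C8. Under ATRi it was at 97.1 CPM in WT replicate 1 and at 118, 93.9 and 119 in those clones. Clones B9 and C8 were above every WT library and clone H4 was at the level of WT replicate 1. The fitted log2 fold change was 0.21 (SE 0.09, adjusted p = 0.191), and it was called when clone H4 was left out (0.30, SE 0.05, adjusted p = 0.00519).

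*Clspn*, whose product holds CHK1 for phosphorylation by ATR, lies on the plus strand at chr4:126556935-126593903. In the *Cdk8* multiplex it stood at 102, 98.3 and 101 CPM in the 3 WT libraries tested and at 105 to 121 in the 6 *Cdk8* KO libraries. All *Cdk8* KO libraries were above all WT libraries for *Clspn*, as was the case in either direction for 12.6% of all genes, and the fitted log2 fold change of 0.11 (SE 0.05) was not called (adjusted p = 0.216). In the *Ccnc* multiplex *Clspn* stood at 95.8 to 103 CPM in WT and 102 to 114 in KO libraries, which overlapped (0.10, SE 0.06, adjusted p = 0.276).

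*Chek1*, the called gene, and *Clspn*, the mediator that acts with it, are shown with their promoters, 250 bases before to 50 after the RefSeq start (GRCm38.p6, written on the gene's strand). Capitals mark a match to the E2F-like strings TTTCGCGC, TTTCCCGC, TTTGCCGC and TTTGGCGC on either strand. E2F factors drive many genes of the G1/S transition, and strings of this kind are their known recognition sites.
Chek1, chr9:36726609-36726908, minus strand: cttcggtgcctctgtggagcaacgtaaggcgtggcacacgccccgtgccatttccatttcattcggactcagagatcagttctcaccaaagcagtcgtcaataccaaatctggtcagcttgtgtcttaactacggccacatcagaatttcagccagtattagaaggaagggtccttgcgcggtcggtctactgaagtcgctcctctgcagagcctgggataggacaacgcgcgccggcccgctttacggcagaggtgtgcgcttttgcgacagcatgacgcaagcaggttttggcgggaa
Clspn, chr4:126556730-126557029, plus strand: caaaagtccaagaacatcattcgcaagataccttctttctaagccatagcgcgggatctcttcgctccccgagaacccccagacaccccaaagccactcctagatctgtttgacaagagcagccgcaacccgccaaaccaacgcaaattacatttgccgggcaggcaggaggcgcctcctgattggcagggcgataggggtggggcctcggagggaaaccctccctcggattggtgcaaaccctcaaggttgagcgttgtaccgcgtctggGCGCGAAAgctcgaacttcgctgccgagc
The *Clspn* window held TTTCGCGC on the reverse strand at bases 22 to 29 after the start, the *Topbp1* window held the same string from −129 to −122, and the *Chek1* window held none of the 4 strings in full. The last 7 bases of the *Chek1* window match the reverse strand of TTTCCCGC but for 1 letter, which would lie past the window's edge. This is not counted as a match. The whole *Chek1* window lies inside the gene's annotated span, whose upstream end is at base 36727065, and bases upstream of that end were not searched. A match was found in 2 of the 9 genes with a RefSeq promoter, beside 9 of 23 G1/S genes, 1 of 18 G2/M genes and 2.60% of all 27025 genes. *Rad9a* was not among them.

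Among the clamp genes, *Rad9a* (chr19:4195196-4201662) gave the largest fitted value of the 10 genes without passing the test. It stood at 11.2, 10.7 and 9.20 CPM in the WT libraries and at 15.1, 12.2 and 12.1 in D1, G2 and H5 under DMSO, then at 14.4, 10.9 and 12.6 under ATRi. The KO libraries lay above WT under DMSO, and under ATRi every clone lay above the WT library tested, at 9.20 CPM. Over both treatments the groups overlapped, as clone G2 under ATRi was below WT replicate 1 under DMSO. The fitted log2 fold change in *Ccnc* KO was 0.34 (SE 0.11, adjusted p = 0.0565), and it was called by DESeq2 (0.33, adjusted p = 0.0300), with a filter of at least 1 count (0.33, adjusted p = 0.0220) and without clone G2 (0.41, adjusted p = 0.0468). With WT replicate 2 under ATRi put back it was 0.14 (SE 0.14, adjusted p = 0.589). In *Cdk8* KO it was 0.17 (SE 0.08, adjusted p = 0.282), and −0.02 with that library put back.

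*Hus1* and *Rad1* encode the other clamp subunits. *Hus1* (chr11:8993137-9011191) stood at 82.6, 84.1 and 86.3 CPM in WT and at 87.0 to 95.7 in the *Ccnc* KO libraries, which did not overlap, as was so for 14.5% of all genes (log2 fold change 0.11, SE 0.05, adjusted p = 0.224). In the *Cdk8* multiplex the *Hus1* level split the KO clones: 97.4 and 97.9 CPM in B9, 88.7 and 94.1 in C8, but 76.1 and 78.4 in H4, below all WT libraries, so that the fitted value was 0.01 (SE 0.09). *Rad1* (chr15:10486018-10499063) was at 46.1 to 46.2 CPM in WT and 44.5 to 50.9 in *Ccnc* KO libraries (0.08, SE 0.06, adjusted p = 0.391). The *Rad1* value in *Cdk8* KO was nearly the same (0.08, SE 0.06, adjusted p = 0.461). *Rad17* (chr13:100617164-100651051), which loads the clamp, gave −0.09 (SE 0.06, adjusted p = 0.315) in *Ccnc* KO and −0.02 (SE 0.05, adjusted p = 0.846) in *Cdk8* KO.

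*Atr*, the kinase itself (chr9:95857597-95951781) stood at 60.5 CPM in WT replicate 1 and 73.0 in WT replicate 2 under DMSO, with the KO libraries reaching from 54.5 to 69.1. The *Ccnc* KO clones D1, G2 and H5 were at 57.5, 54.5 and 66.4 CPM under DMSO and at 57.9, 69.1 and 66.5 under ATRi. Their fitted log2 fold change was −0.12 (SE 0.08, adjusted p = 0.391), and it moved to −0.31 without WT replicate 1 and to −0.03 without WT replicate 2. In *Cdk8* KO it was 0.01 (SE 0.07, adjusted p = 0.947). *Atrip* (chr9:109057933-109074124) gave 0.05 (SE 0.07, adjusted p = 0.658) in *Ccnc* KO and 0.13 (SE 0.06, adjusted p = 0.261) in *Cdk8* KO. Of its exon bases, 16.0% lie in *Trex1*, a gene on the same strand, so reads there cannot be told apart and the *Atrip* level is uncertain.

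Of the activators, *Topbp1* (chr9:103305215-103350428) had the smallest ratio of highest to lowest level of the 10 genes over the 18 library runs tested. That ratio was 1.15, close to the 1.16 of *Rad1*, and it was 1.64 for *Rad9a*, the gene with the fewest reads. The *Topbp1* log2 fold change was 0.02 (SE 0.05, adjusted p = 0.849) in *Ccnc* KO and 0.07 (SE 0.04, adjusted p = 0.402) in *Cdk8* KO. *Etaa1* (chr11:17938756-17953875) gave −0.10 (SE 0.07, adjusted p = 0.394) and −0.06 (SE 0.05, adjusted p = 0.554).

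**Figure D3:**
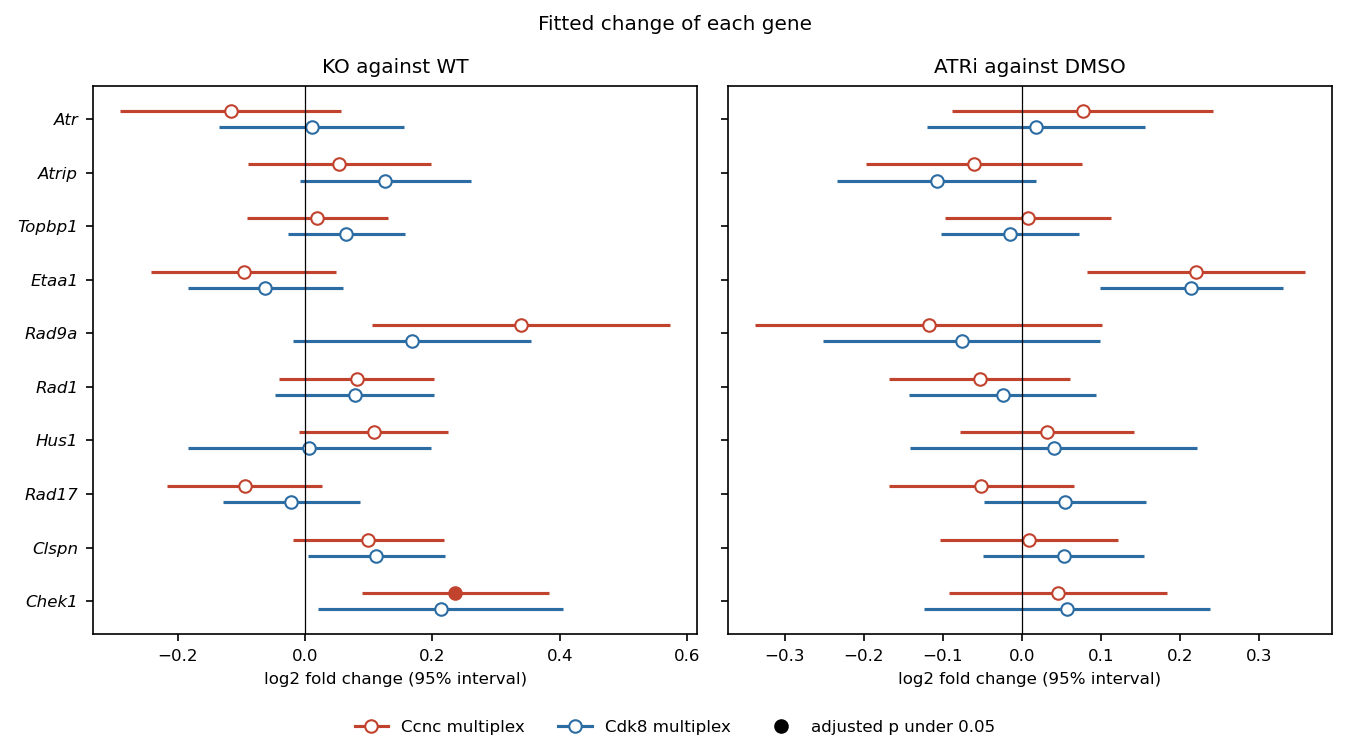
Log2 fold change of each gene with its 95% interval from edgeR, KO against WT on the left and ATRi against DMSO on the right, red for the *Ccnc* and blue for the *Cdk8* multiplex. The only filled point, an adjusted p under 0.05, is *Chek1* in *Ccnc* KO at 0.24; *Etaa1* under ATRi, at 0.22 and 0.21, has both intervals above 0 and is not called over all genes.

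The response to ATRi was asked by comparing ATRi with DMSO libraries, WT and KO together with genotype as a term. None of the 10 genes passed the test in either multiplex, where it called 1.11% of all genes in the *Ccnc* and 0.0855% in the *Cdk8* multiplex. With the clone as a replicate block, which pairs the libraries of each line and takes nothing from WT replicate 2 under DMSO, it called 451 of all genes (2.43%) with 0 of the 10 among them, and 2107 of all genes (11.3%) with 1 of the 10, *Etaa1*. With the block and WT replicate 2 under ATRi put back, it called 46 (0.259%) and 485 (2.72%) of all genes, with 0 of the 10 in either multiplex. All 95% intervals of the 10 genes lay between −0.34 and 0.36 on the log2 scale. Lines were counted with WT replicate 1 in both multiplexes, and the share of all genes with every line alike was not counted. *Atrip* was lower under ATRi in 4 of 4 lines of each multiplex, by 0.06 (SE 0.06, adjusted p = 0.677) and 0.11 (SE 0.06, adjusted p = 0.520) on the log2 scale, neither of them called. *Chek1* was higher in 3 of 4 lines of each (0.05, SE 0.06, and 0.06, SE 0.08), *Rad9a* in 1 of 4 (−0.12, SE 0.10, and −0.08, SE 0.08) and *Rad1* in 1 of 4 (−0.05, SE 0.05, and −0.02, SE 0.05). *Atr*, the target of the drug, gave 0.08 (SE 0.08, adjusted p = 0.662) and 0.02 (SE 0.06, adjusted p = 0.953). *Atr* was higher in 4 of 4 lines of the *Ccnc* and 2 of 4 of the *Cdk8* multiplex, and *Hus1* in 3 of 4 and 4 of 4.

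*Etaa1*, the RPA-bound activator, was the member with the largest ATRi values. In the *Ccnc* multiplex its CPM went from 119 under DMSO to 149 under ATRi in WT replicate 1, from 107 to 118 in D1, from 112 to 134 in G2 and from 127 to 139.9 in H5. In the *Cdk8* multiplex it went from 126 to 154 in WT replicate 1, from 131 to 144 in B9, from 119.6 to 129.7 in H4 and from 121 to 148 in C8. Every line used was higher under ATRi, while the ATRi and DMSO groups overlapped, because the lines differed in their DMSO level. WT replicate 2, whose ATRi library was not in the main tests, went the other way. It went from 119 to 107 CPM in the *Ccnc* and from 124 to 110.0 in the *Cdk8* multiplex.

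The fitted *Etaa1* log2 fold change was 0.22 (SE 0.06, adjusted p = 0.109) and 0.21 (SE 0.05, adjusted p = 0.167), an increase of 16.5% and 16.0% with 95% intervals of 5.90% to 28.1% and 7.11% to 25.7%. With the replicate block it was 0.21 (SE 0.05, adjusted p = 0.0631) in the *Ccnc* and 0.20 (SE 0.04, adjusted p = 0.00359) in the *Cdk8* multiplex. With WT replicate 2 under ATRi put back it was 0.15 (SE 0.08, adjusted p = 0.497) and 0.14 (SE 0.08, adjusted p = 0.578), and with the block as well 0.15 (SE 0.07, adjusted p = 0.390) and 0.13 (SE 0.06, adjusted p = 0.267). In the KO clones alone *Etaa1* gave 0.18 (SE 0.08, adjusted p = 0.403) for *Ccnc* and 0.17 (SE 0.07, adjusted p = 0.805) for *Cdk8*, the latter called with the replicate block (0.17, SE 0.04, adjusted p = 0.0266).

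**Figure D4:**
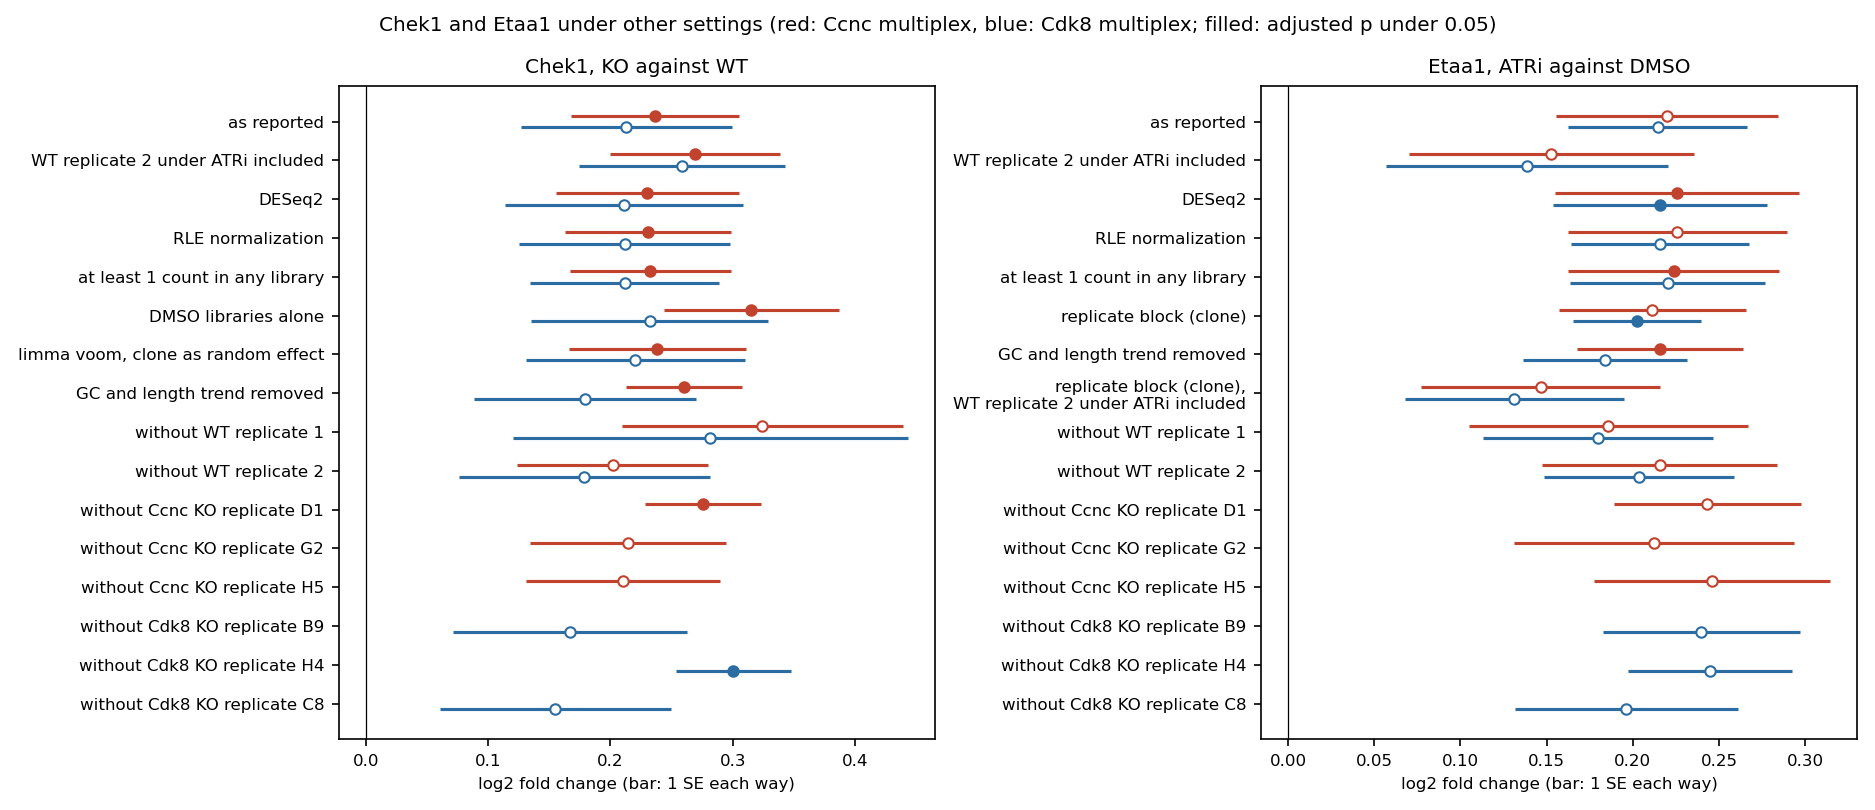
Log2 fold change of *Chek1* in KO against WT (left) and of *Etaa1* under ATRi against DMSO (right) under each setting tried, with bars of 1 SE each way, red for the *Ccnc* and blue for the *Cdk8* multiplex, filled where the adjusted p was under 0.05. Every point lies above 0; *Chek1* was called in 8 of 12 other settings in the *Ccnc* and 1 of 12 in the *Cdk8* multiplex, and *Etaa1* in 3 of 12 and 2 of 12.

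Within the KO clones alone the ATRi effect was called for 0 of the 10 genes in *Ccnc* KO (0.0894% of all genes) and for 0 in *Cdk8* KO (0% of all genes by edgeR, with 1020 genes at an unadjusted p under 0.05 and 48 called by DESeq2). With the replicate block the test called 109 (0.65%) of all genes in *Ccnc* KO, with 0 of the 10, and 1193 (6.95%) in *Cdk8* KO, with *Etaa1* among them. Whether the response to ATRi differed between KO and WT cells was tested by the interaction of genotype and treatment. It was called for 0 of the 10 genes in both multiplexes and for 0% of all genes by edgeR and by DESeq2, with 395 and 255 genes at an unadjusted p under 0.05, none of them among the 10. With a filter of at least 1 count edgeR called 20 of all genes in the *Ccnc* multiplex, none of the 10. With the replicate block it called 0 of all genes in the *Ccnc* and 4 in the *Cdk8* multiplex, again none of the 10. With 1 WT library under ATRi, the interaction intervals were wide for some genes, reaching 0.69 on the log2 scale for *Rad9a* and −0.49 for *Chek1*, and narrower for others, as for *Topbp1* (−0.24 to 0.24 in *Ccnc* KO). The largest interaction values were −0.20 (SE 0.14) for *Chek1* and 0.19 (SE 0.23) for *Rad9a*, both in *Ccnc* KO. For *Chek1* the 3 *Ccnc* KO clones changed under ATRi by −0.18, 0.05 and 0.07 in log2 CPM, and WT replicate 1 by 0.16 and WT replicate 2 by −0.07.

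A list of 18 other genes of the pathway gave 3 calls in *Ccnc* KO against WT, 0 in *Cdk8* KO and 0 under ATRi in either multiplex. Of all genes the test called 12.3% and 4.31% in the KO comparisons and 1.11% and 0.0855% under ATRi. In *Ccnc* KO 22.2% of the list had an unadjusted p under 0.05, beside 26.7% of all genes, so the list did not stand out. *Rfc2*, a small subunit of the clamp loader, rose (log2 fold change 0.20, SE 0.05, adjusted p = 0.0171), while *Rfc5*, another, fell by 0.22 (SE 0.06, adjusted p = 0.0223). *Hus1b*, the paralog of *Hus1*, fell by 0.62 (SE 0.18, adjusted p = 0.0397) from a low level of 1.16 to 1.81 CPM in WT to 0.84 to 1.07 in *Ccnc* KO. The 18 genes gave a median of 0.04 in *Ccnc* KO and 0.08 in *Cdk8* KO, and the RPA genes *Rpa1*, *Rpa2* and *Rpa3*, the ATR-related kinase genes *Atm* and *Prkdc*, and *Cdc25a* and *Wee1* were not called in any of these 4 comparisons.

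**Figure D5:**
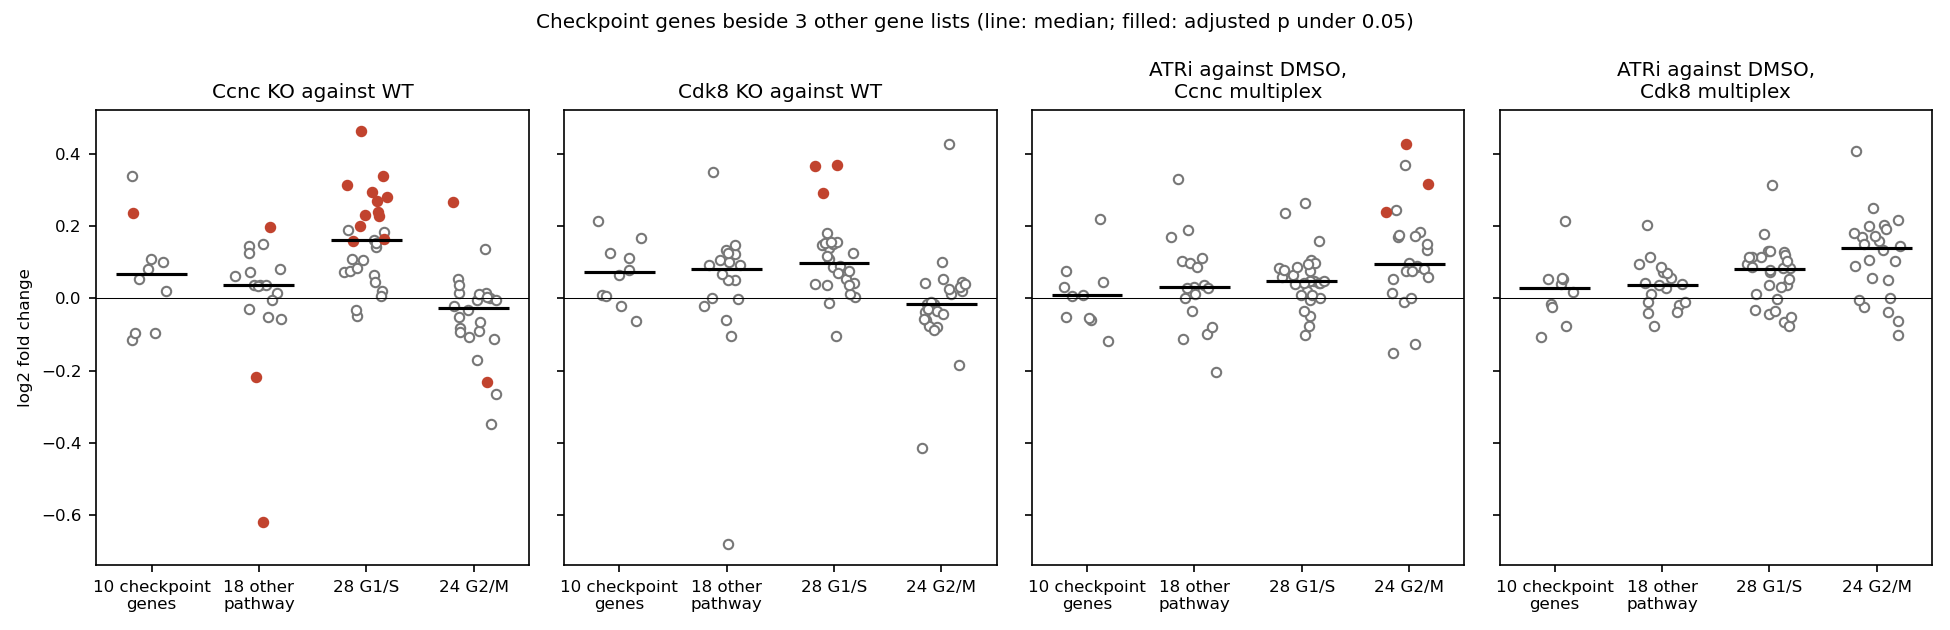
Log2 fold change of every gene of 4 lists in the 4 comparisons, filled where the adjusted p was under 0.05, with the median of each list as a line. In *Ccnc* KO the 28 G1/S genes have a median of 0.16 with 12 called, all higher, and the 10 checkpoint genes a median of 0.07 with 1 called. Of all genes 12.3% were called there.

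*Chek1* was set beside genes of the G1/S transition, a list chosen with earlier results of these data known. Of 28 G1/S genes 12 rose and 0 fell in *Ccnc* KO, where 7.01% of all genes rose and 5.28% fell. The median log2 fold change of the 28 was 0.16. Those that rose included *Rrm2* (0.46, adjusted p = 5.32e-05), a subunit of the enzyme that makes deoxynucleotides, and *Pcna* (0.31, adjusted p = 0.00767), the sliding clamp of the DNA polymerases. In *Cdk8* KO 3 rose and 0 fell, *Rrm2* and *Ccne2* among them, with a median of 0.10. There 2.28% of all genes rose and 2.03% fell. The lists were counted only with both treatments together. The DMSO libraries alone called fewer of all genes, 635 in *Ccnc* KO and 5 in *Cdk8* KO. Of 24 G2/M genes 1 rose and 1 fell in *Ccnc* KO (median −0.03), and 0 were called in *Cdk8* KO (median −0.01). Under ATRi 3 G2/M genes rose in the *Ccnc* multiplex, *Mki67*, *Cenpf* and *Cdc20*, and 0 in the *Cdk8* multiplex, with medians of 0.09 and 0.14. Of all genes 0.366% and 0.0374% rose under ATRi. *Ccnb1*, the Cyclin B1 gene by whose mRNA the study chose the time of treatment, gave 0.06 (SE 0.05, adjusted p = 0.625) and 0.09 (SE 0.05, adjusted p = 0.499). By DNA content and EdU uptake, a label of DNA synthesis, the study found untreated KO and WT mESCs alike in cell cycle profile. In bulk RNA a larger share of cells in a phase and more mRNA per cell cannot be told apart, and the part of cell cycle phase in the *Chek1* values was not tested.

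Markers of other cell types also moved with genotype. The summed CPM of 8 primitive endoderm markers was 87.9 to 98.1 in WT and 128 to 191 in *Ccnc* KO libraries, and 89.1 to 101 and 165 to 313 in the *Cdk8* multiplex. That of 6 trophectoderm markers was 19.6 to 20.4 in WT and 40.1 to 66.5 in *Ccnc* KO, and 19.3 to 19.5 and 36.5 to 257 in the *Cdk8* multiplex, where *Elf5* stayed at 0.0919 CPM on average. The 10 stem cell markers summed to 5013 to 5389 CPM in WT and 4439 to 5019 in *Ccnc* KO, and to 4926 to 5289 and 3697 to 4779 in the *Cdk8* multiplex. The 5 neuroectoderm markers were at 137 to 151 CPM in WT and 101 to 127 in *Ccnc* KO (131 to 147 and 119 to 161 in the *Cdk8* multiplex), and 6 fibroblast markers at 5.74 to 7.15 and 8.28 to 25.4 CPM over both multiplexes, with *Postn* at 0.0125 and 0.0434 on average. A sum can be carried by a few of its markers, and sums in bulk RNA do not show that cells of these types were present. The part of cell type in the levels of *Chek1* and the other 9 genes was not tested.

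Over the 18 library runs, with each multiplex centred on its own mean, the 10 genes did not vary as 1 block. Of 45 pairs 36 had a positive Pearson r, with a median of 0.22. The closest pairs were *Chek1* with *Rad1* (r = 0.78), *Chek1* with *Clspn* (0.77) and *Chek1* with *Hus1* (0.72), and the most opposed was *Etaa1* with *Rad9a* (−0.61). *Atr* followed *Topbp1* (0.67) and *Etaa1* (0.51) and had an r of 0.00 with *Chek1* and of 0.10 with its partner *Atrip*. Among 10367 genes with at least 5 CPM on average, the 5 most like *Chek1* were *Dtl* (0.95), *Hells* (0.95), *Me2* (0.94), *Igf2bp3* (0.94) and *Mcm4* (0.92). *Rad1* ranked 141, *Clspn* 175 and *Hus1* 299 on that scale. The 5 most like *Atr* were *Usp9x* (0.91), *Trip11* (0.89), *Son* (0.87), *Dmxl1* (0.87) and *Usp34* (0.87), whose longest coding transcripts run from 8731 to 12247 bases, where *Atr* has 8102, *Rad9a* 2081 and the median gene 2561. The points share the WT libraries, which appear in both multiplexes, and lines that give 2 libraries each, so these values describe the libraries and carry no test. Differences between genotypes and treatments were not taken out, so they enter r. The r over pairs of all genes was not counted. With a trend on base composition and length taken out of each library, *Atr* in *Ccnc* KO went from −0.12 to −0.02 (SE 0.06), and *Chek1* from 0.24 to 0.26 (SE 0.05, adjusted p = 0.00285).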

How the data were processed

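The authors trimmed the reads (Trimmomatic 0.38), aligned them to GRCm38.p6 (HISAT2 2.1.0) and counted them per gene on the sense strand, with duplicates set to be ignored (featureCounts 2.0.1), and deposited the counts of each lane without normalization. Their rlog tables were not used here. The lanes of each library were summed, and the counts were tested within each multiplex by edgeR 4.0.16 (quasi-likelihood, TMM, filterByExpr) in R 4.3.3, with limma 3.58.1 and DESeq2 1.42.0 as alternatives. Calls used a Benjamini-Hochberg adjusted p under 0.05 over all genes tested. Log2 CPM used a prior count of 2. The study's model formula is not given in the sources used here. All 10 genes are described, in order of role, beside lists written from general knowledge. The members and lists were chosen with earlier results of these data known. The 2 libraries of a line come from the same cells, which pairs them. Their deviations from the group means correlated across genes by 0.02 to 0.18 in *Ccnc* KO and by 0.18 to 0.63 in *Cdk8* KO clones. The fits were checked on simulated counts of independent libraries, with changes of at least 2-fold. That check does not cover changes as small as those of the 10 genes, nor libraries paired by line. Counts are sums over reads without molecular identifiers.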

Additional observations from a re-analysis of the deposited data

Results flagged for a closer look

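*Rad9a* in WT replicate 2 under ATRi, a library that no main comparison uses, stood at 15.3 CPM in the *Ccnc* multiplex and at 15.7 CPM in the *Cdk8* multiplex. This was above all 9 other libraries of each, of which the highest were at 15.1 and 12.6 CPM. It is given because this signal lies outside the data of the main tests and above both WT replicates under DMSO. Those were at 11.2 and 10.7 CPM in the *Ccnc* and 11.1 and 10.8 CPM in the *Cdk8* multiplex. In the same library 5 of the 10 genes in the *Ccnc* and 7 of 10 in the *Cdk8* multiplex were below all 9 others, *Chek1*, *Clspn*, *Topbp1*, *Atrip* and *Rad1* in both. The share of all genes that were lowest in this library was not counted, so these counts are no result about the 10 genes. Both multiplexes hold the same RNA, so the second run is no independent repeat. The groups of 2 and 3 libraries were too small for a test of outlying samples.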

How the results depend on the processing

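Of 86 counts of called genes among the 10 under other settings, 74 stayed within 1.5 times of those reported. In *Ccnc* KO against WT, DESeq2 and a filter of at least 1 count gave 2 (*Chek1* and *Rad9a*), and leaving out a line gave 0 to 1. In *Cdk8* KO leaving out a line gave 0 to 1. Under ATRi in the *Ccnc* multiplex DESeq2, the filter of at least 1 count and the removal of the trend on base composition and length gave 1 (*Etaa1*) in place of 0. In the *Cdk8* multiplex DESeq2 and the replicate block gave 1, and the replicate block within *Cdk8* KO clones gave 1, each *Etaa1*. The paired fit with this block changed no other call among the 10 genes. The causes were not tested. Of 480 fitted values of single genes 30 changed sign, 0 of them for a called gene. Among all genes, in place of 2284 called in *Ccnc* KO the DMSO libraries alone gave 635 and leaving out a line 289 (WT replicate 1) to 2640. In place of 806 in *Cdk8* KO the DMSO libraries alone gave 5, the clone as a random effect 237, DESeq2 1731 and leaving out a line 1 (WT replicate 1) to 1512. In place of 206 under ATRi in the *Ccnc* multiplex DESeq2 gave 647, the filter 845, the trend 682, WT replicate 2 put back 41 and leaving out a line 21 (WT replicate 1) to 250. In place of 16 in the *Cdk8* multiplex these gave 354, 41, 40, 13 and 0 to 29. Within the KO clones DESeq2 gave 197 and the filter 462 in place of 15 in *Ccnc* KO, and 48 and 4 in place of 0 in *Cdk8* KO. The trend on base composition and length and the block with WT replicate 2 under ATRi put back were chosen after seeing the data. Without WT replicate 1 the interaction could not be fitted. WT replicate 2 under ATRi left 1 WT library under the drug, whose spread was taken from the other groups.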
